A study of Mus musculus with 8 samples.

Results

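Kit, CD34 and Fc gamma receptor II are the surface proteins by which the leukaemia stem cells of this series were sorted, and the genes considered here are Kit, Cd34, the Fc gamma receptor genes Fcgr1, Fcgr2b, Fcgr3 and Fcgr4, and Fcer1g, which encodes the signalling chain that activating Fc receptors share. All probes whose symbol in the array's annotation was one of these 7 names were taken, whatever their value, which gave 13 of the 45281 probes on the array. The gene expression of mouse leukaemia cells that carry the MLL-AF9 oncogene was measured on Illumina bead arrays to ask what knockdown of Itgb3, the integrin beta 3 subunit, changes in primary leukaemia. The cells came from the bone marrow of mice on the C57BL/6 Actin-dsRed background with a leukaemia in its quaternary transplant, and were sorted as Hoechst low, dsRed+, c-kit hi, CD34+ and FcγRII hi. The Luc control group (3 arrays, replicates 1 to 3) carried the control hairpin named Luc. The Itgb3-17 group (3 arrays, replicates 1 to 3) and the Itgb3-20 group (2 arrays, replicates 4 and 5) each carried a different hairpin against Itgb3. All 3 groups share the oncogene, the strain, the transplant and the gate, and the labels give no time point or age and do not say whether each array was a mouse of its own. The p-values below therefore measure only how far these arrays spread, and that spread may be technical.

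Kit is the receptor tyrosine kinase for stem cell factor and a defining protein of blood stem and progenitor cells. CD34 is a sialomucin of progenitors, and in mouse marrow CD34 together with high Fc gamma receptor II and III marks granulocyte and macrophage progenitors among Kit-positive cells. Fc gamma receptors bind the constant part of IgG. Fcgr1, Fcgr3 and Fcgr4 encode activating receptors that signal through the gamma chain Fcer1g and the kinase Syk, while Fcgr2b encodes the inhibitory receptor, which recruits the phosphatase SHIP1. The extracellular parts of the Fcgr2b and Fcgr3 proteins are closely similar, and a widely used antibody binds both. The antibody of this sort is not given in the sources used here. The arrays measure messenger RNA and not the surface protein on which the cells were selected.

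Between 9262 and 11856 probes (20.5% to 26.2%) were above background on an array, meaning a deposited detection p-value under 0.05, and median raw signals lay between 91.2 and 102. Itgb3 itself and Syk had 1 probe each, above background on 0 of the 8 arrays (detection p 0.324 to 0.912 and 0.499 to 0.937), so the knockdown could not be read from these arrays. Levels below are normalized log2 signals. Tests are by limma on the 13315 probes above background on at least 2 arrays, with p-values adjusted by the Benjamini-Hochberg method over all of them and called under 0.05. The number of arrays limits the precision, and the median standard error of a hairpin against the control was 0.171 for Itgb3-17 and 0.191 for Itgb3-20.

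Among the genes, Cd34, Fcgr2b, Fcgr4, Fcgr3 and Fcer1g lie on chromosome 1, and in the RefSeq gene order Fcgr2b, Fcgr4 and Fcgr3 are next to each other with Fcer1g close by. The bases before the start of Fcgr2b, Fcgr3 and Fcgr4 are shown because these 3 neighbours are the Fc gamma receptor genes with a probe above background on every array. Each stretch is the 250 bases upstream of the start, in the gene's direction, from RefSeq on the GRCm38.p6 build. Capitals mark the letters GAGGAA or their reverse complement TTCCTC, the core that PU.1, the myeloid factor of the Ets family, is known to bind. The stretches are chr1:170976072-170976321 (minus strand) for Fcgr2b, chr1:171059404-171059653 (minus strand, the first of its listed starts) for Fcgr3 and chr1:171018676-171018925 (plus strand) for Fcgr4.
Fcgr2b: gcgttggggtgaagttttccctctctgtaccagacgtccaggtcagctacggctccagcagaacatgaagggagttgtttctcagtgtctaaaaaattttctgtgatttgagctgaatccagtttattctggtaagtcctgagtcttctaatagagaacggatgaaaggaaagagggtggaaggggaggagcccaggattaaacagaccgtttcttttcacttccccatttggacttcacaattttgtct
Fcgr3: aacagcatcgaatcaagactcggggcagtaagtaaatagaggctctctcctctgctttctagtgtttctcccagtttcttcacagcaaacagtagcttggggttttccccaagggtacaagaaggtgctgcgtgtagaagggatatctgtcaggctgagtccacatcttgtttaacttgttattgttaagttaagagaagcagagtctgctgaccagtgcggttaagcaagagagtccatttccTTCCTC
Fcgr4: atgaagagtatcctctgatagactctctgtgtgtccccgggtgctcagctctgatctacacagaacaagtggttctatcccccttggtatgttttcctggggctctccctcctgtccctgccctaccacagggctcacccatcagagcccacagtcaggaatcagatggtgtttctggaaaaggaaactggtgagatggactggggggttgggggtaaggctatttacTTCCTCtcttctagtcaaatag
The Fcgr3 stretch has the core 6 bases from its start and the Fcgr4 stretch 22 bases from its start, while the Fcgr2b stretch does not hold these letters. Of the other genes, Fcgr1 (55 bases) and Kit (223 bases) hold the core and Cd34 and Fcer1g do not. The core occurs in 23.3% of the 32851 stretches of the same length in the table. GC content was 45.2% for Fcgr2b, 46% for Fcgr3, 51.6% for Fcgr4 and 70.8% for Kit, against a median of 52.4%. Other motifs were also searched on both strands. The GATA factor motif agataa was in 9.99% of all stretches and the C/EBP half-site ttgcnnaa in 9.56%. The STAT factor motif ttcnnngaa was in 7.02% and the GC box gggcgg in 32.7%. Of these 4, the 3 stretches printed hold only ttgcnnaa, once, before Fcgr3. A match of letters is a description and not a binding site, and a missing match says only that these letters are not in the window.

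Of the 13 probes, 8 probes of 4 genes were tested, and 4 were above background on all 8 arrays, 1 each of Kit, Fcgr2b, Fcgr3 and Fcgr4. Cd34, Fcgr1 and Fcer1g had 1 probe each and none was tested. In each of the 4 comparisons 1 of the 8 tested probes was called, and always as higher. Against the control this was Fcgr2b for the mean of both hairpins, where 16.8% of all tested probes were called (8.93% as higher and 7.84% as lower). It was Fcgr2b again for Itgb3-17, where 12.9% were called (7.22% and 5.69%), and Fcgr3 for Itgb3-20, where 11% were called (5.71% and 5.27%). Under median scaling higher probes made up 97.9% of the calls for Itgb3-17, against 56% here, 94.4% against 53.2% for the mean and 79.9% against 52% for Itgb3-20. The share of the 8 probes is near this background. Between the hairpins the call was Fcgr3, where 0.533% of all tested probes were called (0.248% as higher in Itgb3-20 and 0.285% as lower). The comparisons against the control share its 3 arrays, and arrays were also set against it without a test. This was done for the 4 probes above background on every array, since the other 4 were not above background on all arrays and 2 of them, Kit ILMN_1250169 and Fcgr2b ILMN_2577664, passed the filter only through knockdown arrays. Of these 4, 1 lay above all controls on all 5 knockdown arrays and 0 below (11.5% and 8.87% of all tested probes). With Itgb3-17, 1 lay above and 2 below (18.7% and 14.3%), and with Itgb3-20, 2 lay above and 0 below (20.7% and 17.1%). Between hairpins 2 of the 4 lay higher on both Itgb3-20 arrays than on every Itgb3-17 array and 0 lower (13.9% and 15%).

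**Figure D1:**
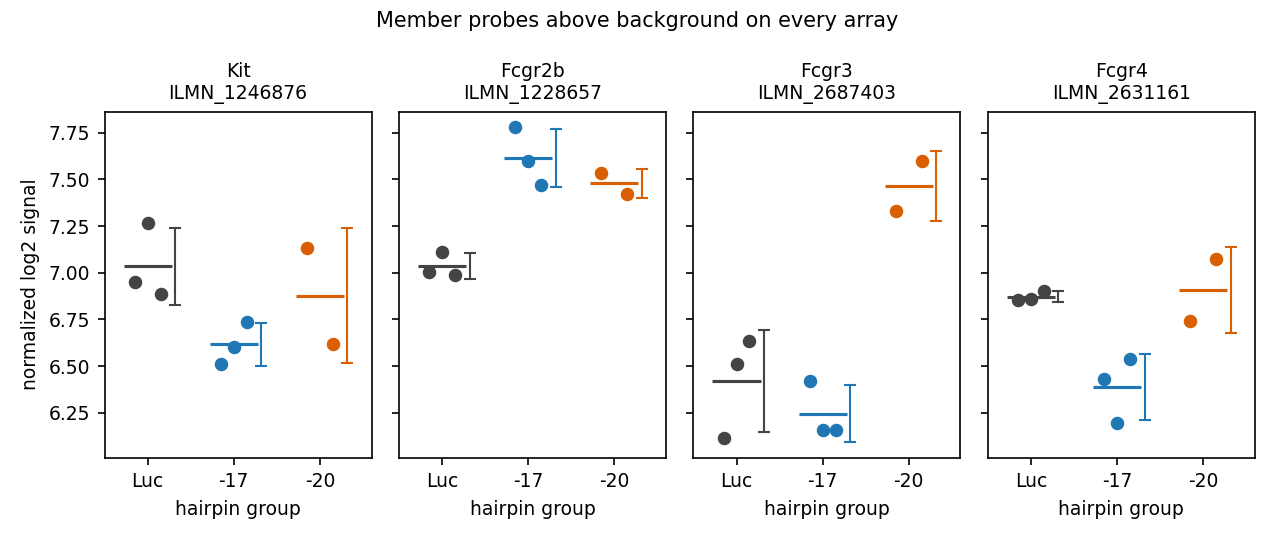
Normalized log2 signal (vertical axis) of the 4 probes above background on every array, by hairpin group: points are arrays, lines are group means and bars are 1 SD (n = 3 Luc control, 3 Itgb3-17, 2 Itgb3-20). Fcgr2b lies at 6.99 to 7.11 in the controls and at 7.42 to 7.78 in all 5 knockdown arrays, while Fcgr3 lies at 7.33 and 7.60 on the Itgb3-20 arrays and at 6.12 to 6.64 on the other 6. Levels of different probes are not comparable.

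Kit, the receptor that defines the gate, was read by 3 probes, of which only ILMN_1246876 was above background on every array. Its log2 level was 6.95, 7.27 and 6.88 on the control arrays, 6.51, 6.60 and 6.74 on the Itgb3-17 arrays, and 7.13 and 6.62 on the Itgb3-20 arrays. The Itgb3-17 arrays all lay below the controls, while the Itgb3-20 arrays lay on either side of the lowest control. Group means were 7.03 ± 0.20 (SD, n = 3) in the control, 6.62 ± 0.11 (SD, n = 3) with Itgb3-17 and 6.88 ± 0.36 (SD, n = 2) with Itgb3-20. The difference from the control was -0.42 ± 0.175 on the log2 scale (SE, limma adjusted p = 0.131, 95% interval -0.79 to -0.05 before adjustment) for Itgb3-17. It was -0.16 ± 0.196 (SE, limma adjusted p = 0.671) for Itgb3-20 and -0.29 ± 0.158 (SE, limma adjusted p = 0.243) for the mean of both. Kit therefore passed the test in no comparison, and under median scaling in place of quantile normalization its differences were 0.03, 0.04 and 0.03 for Itgb3-17, Itgb3-20 and their mean, above the control. Median scaling moved the median of all tested probes to 0.21 for Itgb3-17, 0.09 for Itgb3-20 and 0.15 for the mean. The hairpins differed by 0.26 (Itgb3-20 minus Itgb3-17, limma adjusted p = 0.662, interval -0.15 to 0.68). In the order of the means the control was followed by Itgb3-20 and Itgb3-17, and no neighbouring pair differed beyond the threshold.

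The other Kit probes were dim. ILMN_1250169 was above background on 2 arrays, 1 of Itgb3-17 and 1 of Itgb3-20, and its log2 levels ran from 4.32 to 4.79. It passed the filter on dim probes only through the knockdown arrays, since it was above background on 0 of the 3 controls, and no fold is given because the hairpin means lay under the controls' floor (limma adjusted p = 0.730 and 0.464 for Itgb3-17 and Itgb3-20). ILMN_1216898 was above background on 1 array and was not tested, with levels from 4.27 to 4.67. Neither gives a second reading of the level seen by the bright probe.

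Cd34, the sialomucin of the gate, was above background on 1 of the 8 arrays. Its log2 level was 4.29, 4.39 and 4.49 in the controls, 4.19, 4.47 and 4.21 with Itgb3-17, and 4.19 and 4.74 with Itgb3-20. The groups overlapped, and the 4.74 of Itgb3-20 replicate 5 was the reading above background. The label CD34+ could not be checked at the messenger level from this probe. Kit and Fcgr2b of the gate, and also Fcgr3, each had a probe above background on all 8 arrays.

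Fcgr2b, the inhibitory receptor and the only Fc gamma receptor II gene of the mouse, rose with Itgb3-17 and for the mean of both hairpins. Its bright probe, ILMN_1228657, had log2 levels of 7.0, 7.11 and 6.99 on the control arrays, 7.78, 7.60 and 7.47 on the Itgb3-17 arrays, and 7.53 and 7.42 on the Itgb3-20 arrays. Every knockdown array lay above every control, and the hairpins overlapped each other. Means were 7.03 ± 0.07 (SD, n = 3), 7.61 ± 0.16 (SD, n = 3) and 7.48 ± 0.08 (SD, n = 2). The level was 1.49-fold the control with Itgb3-17 (log2 difference 0.58 ± 0.152, SE, limma adjusted p = 0.0199) and 1.43-fold for the mean of both hairpins (0.51 ± 0.137, SE, limma adjusted p = 0.0181). With Itgb3-20 it was 1.36-fold (0.44 ± 0.170, SE), which missed the threshold at a limma adjusted p of 0.109 and passed it with no background correction (0.0282), an offset of 50 (0.0318) and the authors' processed values (0.0420). The hairpins differed by -0.14 ± 0.170 (SE, limma adjusted p = 0.828, interval -0.50 to 0.22), so the level with Itgb3-20 was not shown to differ from that with Itgb3-17.

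The calls for this probe depended on single arrays. For Itgb3-17 alone, leaving out Itgb3-17 replicate 1 gave 0.50 (limma adjusted p = 0.115), leaving out its replicate 2 gave 0.59 (0.0648) and leaving out Luc control replicate 1 gave 0.56 (0.0530). The mean of both hairpins lost its call when the same Itgb3-17 replicate 1 (0.47, 0.0522) or Luc control replicate 1 (0.50, 0.0555) or 3 (0.49, 0.0529) was left out.

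**Figure D2:**
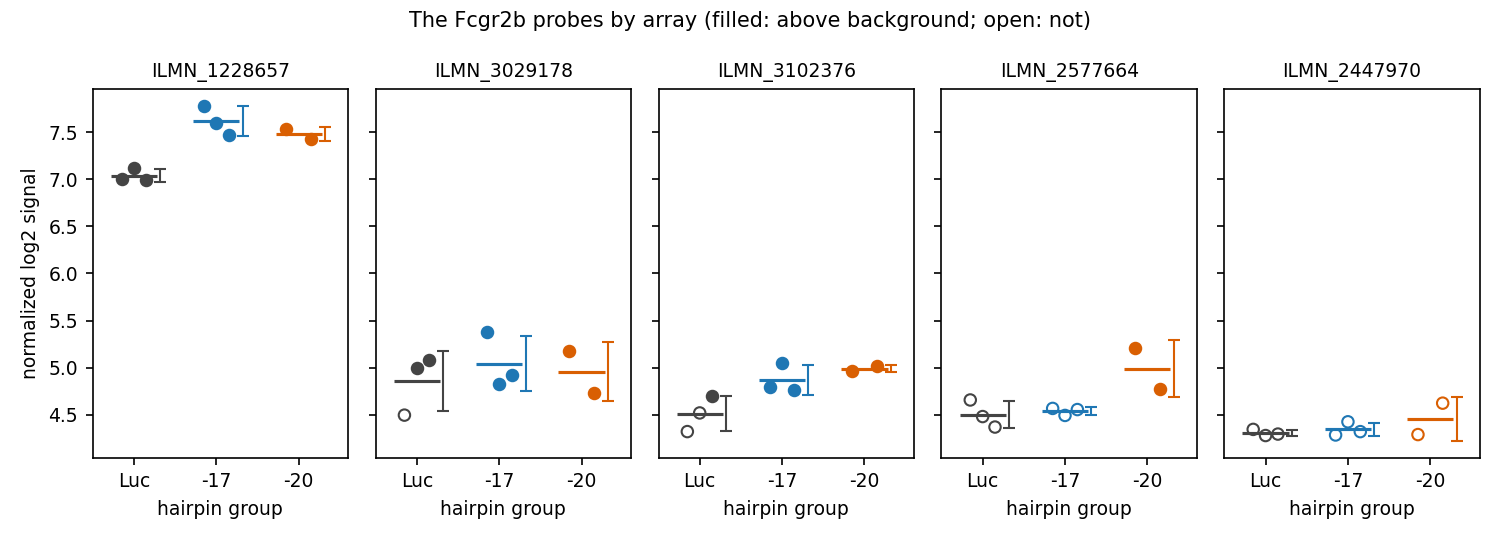
Normalized log2 signal (vertical axis) of the 5 Fcgr2b probes by hairpin group: filled points are arrays above background and open points are not, lines are means and bars are 1 SD (n = 3, 3 and 2). Only ILMN_1228657 is above background on every array. ILMN_3102376 lies at 4.32 to 4.70 in the controls and at 4.76 to 5.05 in the knockdown arrays.

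The other 4 Fcgr2b probes were near background. ILMN_3102376 was above background on 6 arrays, 1 control and all 5 knockdown arrays. Its levels were 4.32, 4.52 and 4.70 in the controls, 4.79, 5.05 and 4.76 with Itgb3-17, and 4.96 and 5.01 with Itgb3-20, so here too every knockdown array lay above every control. The difference for the mean of both hairpins was 0.42 ± 0.145 (SE, limma adjusted p = 0.0603), and it passed the threshold with a stricter filter (0.0482) and without Luc control replicate 3 (0.0469). ILMN_3029178 was above background on 7 arrays and its groups overlapped, at 4.50 to 5.08 in the controls, 4.83 to 5.37 with Itgb3-17 and 4.73 to 5.18 with Itgb3-20, with differences of 0.18 and 0.10 (limma adjusted p = 0.606 and 0.833). ILMN_2577664 was above background on both Itgb3-20 arrays and no other, so it passed the filter only through the group where it is high. Its levels were 5.2 and 4.78 there, against 4.37 to 4.66 in the controls and 4.49 to 4.57 with Itgb3-17. The dim arrays give only a bound, taken on each array as the larger of the probe's own signal and the lowest signal of any probe above background. Against that bound the Itgb3-20 mean was at least 1.24-fold the control (limma adjusted p = 0.0959) and at least 1.29-fold Itgb3-17 (limma adjusted p = 0.324). ILMN_2447970 was above background on 0 of the 8 arrays, at 4.28 to 4.62. The probe sequences are not in the files used here, so which transcripts each probe reads, and whether a probe of Fcgr2b also binds Fcgr3 messenger, was not tested.

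Fcgr3, the activating low-affinity receptor, rose with Itgb3-20 and not with Itgb3-17. Its single probe, ILMN_2687403, had log2 levels of 6.12, 6.51 and 6.64 on the control arrays, 6.42, 6.16 and 6.16 on the Itgb3-17 arrays, and 7.33 and 7.60 on the Itgb3-20 arrays. Both Itgb3-20 arrays lay above the 6 others, and the Itgb3-17 arrays lay within the range of the controls. Means were 6.42 ± 0.27 (SD, n = 3), 6.25 ± 0.15 (SD, n = 3) and 7.46 ± 0.19 (SD, n = 2). The Itgb3-20 level was 2.06-fold the control (log2 difference 1.04 ± 0.194, SE, limma adjusted p = 0.00427, 95% interval 0.63 to 1.45) and 2.33-fold that of Itgb3-17 (1.22 ± 0.194, SE, limma adjusted p = 0.0106, 95% interval 0.81 to 1.63). For Itgb3-17 the difference from the control was -0.18 ± 0.173 (SE, limma adjusted p = 0.564, interval -0.54 to 0.19), and it was 0.27 under median scaling, on the other side of the control. The call of Itgb3-20 against the control was kept without any single array (limma adjusted p 0.00603 to 0.0198) and was lost under median scaling (1.22, 0.0554). The call between the hairpins was lost under median scaling (0.96, 0.300), when all probes were tested (0.0843), and when Itgb3-17 replicate 2 (1.18, 0.0766) or 3 (1.17, 0.0664) was left out. The mean of both hairpins against the control, 0.43 ± 0.156 (SE, limma adjusted p = 0.0691), averages hairpins that differ.

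**Figure D3:**
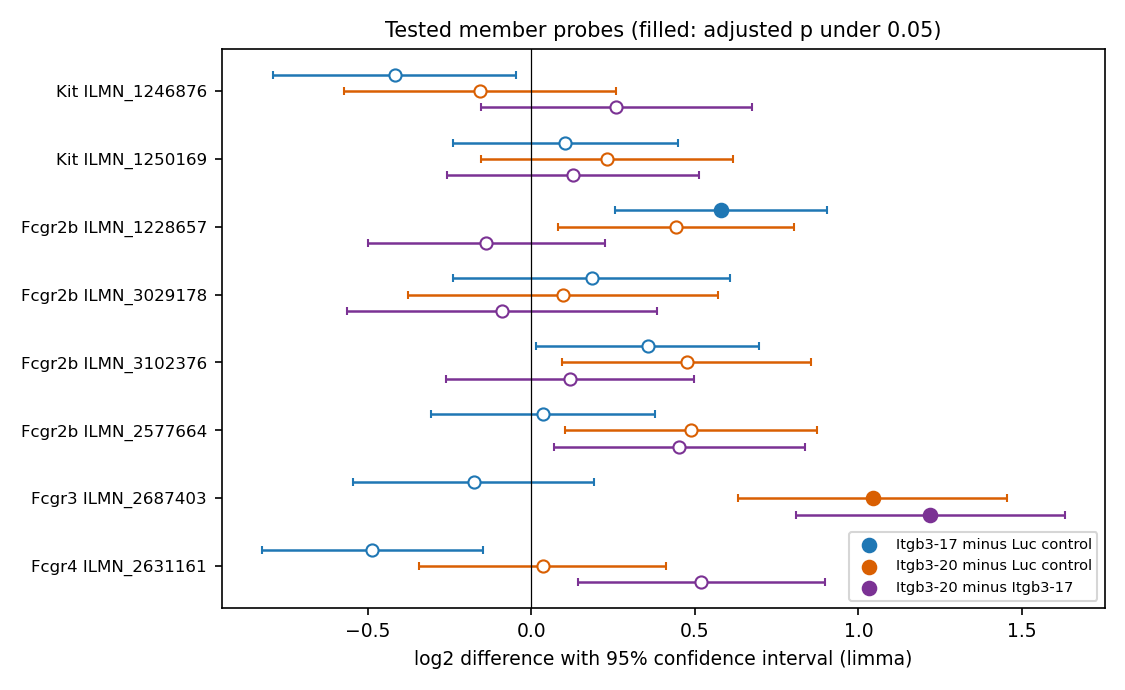
Log2 difference with its 95% confidence interval (horizontal axis, limma) for each of the 8 tested probes: blue, Itgb3-17 minus Luc control; orange, Itgb3-20 minus Luc control; purple, Itgb3-20 minus Itgb3-17; filled points have an adjusted p under 0.05. The filled points are Fcgr2b ILMN_1228657 with Itgb3-17 (0.58) and Fcgr3 with Itgb3-20 against the control (1.04) and against Itgb3-17 (1.22); under median scaling Kit (0.03 and 0.04 against the control) and Fcgr3 with Itgb3-17 (0.27) lie on the other side of the line.

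The summed signals of neutrophil markers, of macrophage and monocyte markers, and of mast cell and basophil markers (given below) were, like Fcgr3, highest on the Itgb3-20 arrays. The summed linear signal of 13 neutrophil markers was 3894 to 4145 on the controls, 3874 to 4035 with Itgb3-17 and 6339 to 6649 with Itgb3-20, and 5 of the 10 tested genes of that list rose with Itgb3-20 while 0 fell (5.71% and 5.27% of all tested probes). Among them were S100a9 and S100a8, the calprotectin subunits, at 1.97 and 0.75 (limma adjusted p = 0.000274 and 0.0101), Ltf, the lactoferrin of secondary granules, and Camp, the cathelicidin. S100a8 was at a log2 level of 11.04 on the controls and 11.79 with Itgb3-20, and a linear sum weights such bright probes most. With Itgb3-17, 2 of the 10 rose, Ltf and Camp (1.02, limma adjusted p = 0.00973), and 0 fell (7.22% and 5.69%). Ltf was above background on all 5 knockdown arrays and 0 of the 3 controls, so it passed the filter only through the knockdown groups, and it was at least 1.88-fold the control for the mean of both hairpins (limma adjusted p = 0.000363, and 0.00116 for Itgb3-17). Leaving out 1 array took the S100a8 call (0.0791 without Itgb3-20 replicate 4) and the Camp call with Itgb3-17 (0.0514 to 0.0522, on omission of Itgb3-17 replicate 2, Itgb3-17 replicate 3 or Luc control replicate 2). Mmp8, of the neutrophil list, was above background on no array. The sum of 13 macrophage and monocyte markers was 650.3 to 712 on the controls, 653 to 725 with Itgb3-17 and 870 to 878 with Itgb3-20, where 1 of 5 tested genes rose, Lyz2, the myeloid lysozyme (1.03, limma adjusted p = 0.00351). The called probe was at a log2 level of 7.54 on the controls and 8.57 with Itgb3-20, and this sum too weights bright probes most. The median log2 difference of the 5 tested genes was -0.02 for Itgb3-20 against the control and -0.16 between the hairpins. The higher sum therefore does not show a rise across this list. The other tested Lyz2 probe, above background on 4 arrays, was at 0.49 with Itgb3-20 (limma adjusted p = 0.139). Mertk, C1qa, C1qb, C1qc, Ccr2, Marco and Cd163 were above background on no array. The part of these cells' messengers in the Fcgr3 result was not tested, and in sorted bulk RNA a change in the share of a cell type and a change of RNA per cell cannot be told apart.

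Natural killer, mast cell and B cell markers were read because these cells also carry the receptors. Of the 10 natural killer markers on the array 3 were tested and Prf1, the perforin of cytotoxic granules, rose for the mean of both hairpins (0.98, limma adjusted p = 0.00567, but 0.0882 with no filter), while Ncr1, Klrb1c, Klrk1, Gzmb, Eomes, Tbx21 and Il2rb were above background on no array. Their sum was 700.3 to 734, 698 to 755 and 726 to 865 on the control, Itgb3-17 and Itgb3-20 arrays. Of 15 mast cell and basophil markers 5 were tested. Cpa3, the mast cell carboxypeptidase, was at least 1.42-fold the control for the mean of both hairpins (limma adjusted p = 0.00509). It was above background on 0 of the 3 controls and passed the filter only through the knockdown groups. Mcpt8 and Mrgprb1 were above background on 3 and 2 arrays, and Fcer1a, Ms4a2, Cma1, Mcpt1, Mcpt4, Tpsb2, Tpsab1 and Mrgprb2 on no array. Sums were 755 to 842, 733 to 815 and 906 to 977, so both Itgb3-20 arrays lay above all the others. With Itgb3-20 alone 1 of the 5 was called, as higher (5.71% of all tested probes), with a median difference of 0.39 against 0.01. At an unadjusted limma p under 0.05, 4 were higher and 0 lower, against 3378 of the 13315 tested probes in either direction. Of the 10 B cell markers on the array only Cd79b, a chain of the B cell receptor complex, was tested, and its 2 tested probes disagreed. The probe of higher mean was above background on all 8 arrays and lay 0.13 (limma adjusted p = 0.763) and 0.48 (0.243) from the control with Itgb3-17 and Itgb3-20, while the other, above background on 6, fell by 0.82 (0.00838) and 0.78 (0.0234). Ms4a1, Pax5, Ebf1, Blk, Blnk, Cd22 and Igll1 were above background on no array, and the sums, mostly of probes near background, were 462 to 478, 442 to 445 and 447 to 483. The part of B cell messengers in the Fcgr2b result was not tested.

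**Figure D4:**
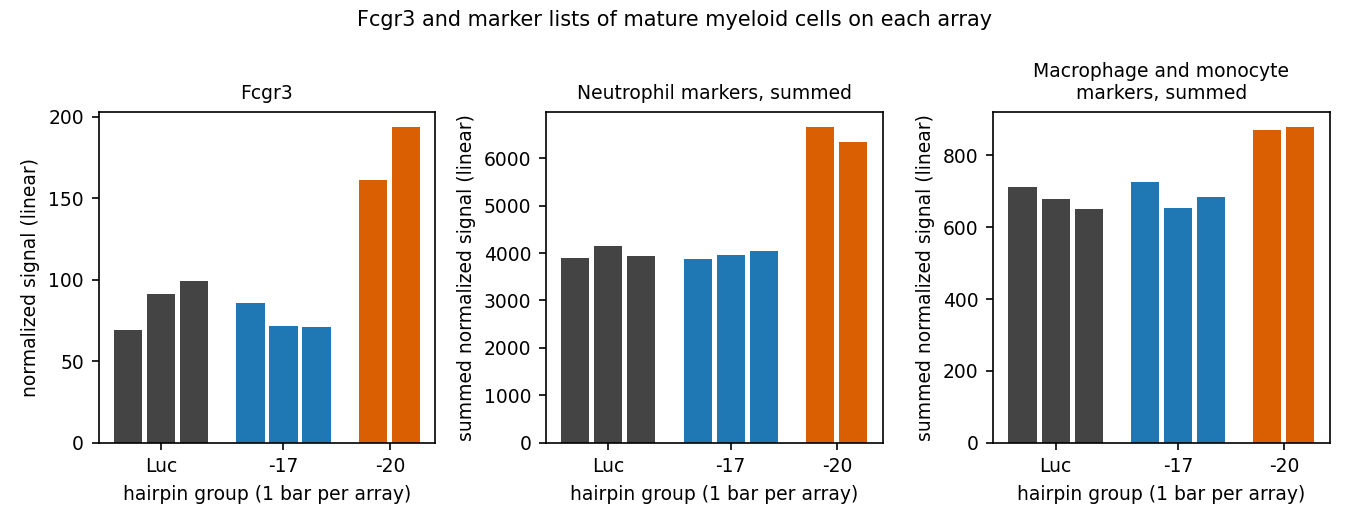
Linear normalized signal (vertical axes from 0, 1 bar per array) of Fcgr3, of 13 neutrophil markers summed and of 13 macrophage and monocyte markers summed. In all 3 panels both Itgb3-20 arrays stand above the 6 others: the neutrophil sum is 6339 and 6649 there against 3874 to 4145, and the macrophage and monocyte sum 870 and 878 against 650.3 to 725. The linear sums weight bright probes most, S100a8 and Lyz2 among them, and the median log2 difference of the 5 tested macrophage and monocyte genes with Itgb3-20 was -0.02. The mast cell and basophil sum, not drawn, was 906 and 977 on the Itgb3-20 arrays against 733 to 842 on the 6 others.

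Fcgr4, the activating receptor between Fcgr2b and Fcgr3 in gene order, lay lower with Itgb3-17 without passing the threshold. Its probe, ILMN_2631161, had log2 levels of 6.85, 6.86 and 6.90 on the control arrays, 6.43, 6.19 and 6.54 on the Itgb3-17 arrays, and 6.74 and 7.07 on the Itgb3-20 arrays. The Itgb3-17 arrays all lay below the controls and below both Itgb3-20 arrays, which in turn lay on either side of the controls. Means were 6.87 ± 0.03 (SD, n = 3), 6.39 ± 0.18 (SD, n = 3) and 6.91 ± 0.23 (SD, n = 2). The difference of Itgb3-17 from the control was -0.49 ± 0.160 (SE, limma adjusted p = 0.0561). It passed the threshold under several alternatives, with limma adjusted p from 0.0246 with an offset of 50 to 0.0469 with trend and robust moderation, and was -0.04 under median scaling (limma adjusted p = 0.946). For Itgb3-20 it was 0.03 ± 0.178 (SE, limma adjusted p = 0.929, interval -0.34 to 0.41). The hairpins differed by 0.52 ± 0.178 (SE, limma adjusted p = 0.218, interval 0.14 to 0.90 before adjustment), and the mean of both hairpins was -0.23 ± 0.144 from the control (SE, limma adjusted p = 0.322) and 0.09 under median scaling.

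Fcgr1, the high-affinity receptor, and Fcer1g, the gamma chain, were above background on 0 of the 8 arrays. Fcgr1 lay at 4.28, 4.32 and 4.34 in the controls, 4.34, 4.26 and 4.31 with Itgb3-17 and 4.31 and 4.53 with Itgb3-20 (detection p 0.124 to 0.740). Fcer1g lay at 4.47, 4.55 and 4.35, at 4.31, 4.20 and 4.41, and at 4.19 and 4.38 (detection p 0.127 to 0.946). These are readings not well above background and give no order of the groups. The activating receptors Fcgr3 and Fcgr4 were thus read on arrays where the probes of their partner chain and of Syk were not above background, which on 1 probe each says nothing firm about the messengers.

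Within the set, arrays that were high for a receptor were not high for all. Over the 8 arrays the correlation of the bright Fcgr2b probe was 0.12 with Fcgr3, -0.66 with Fcgr4 and -0.60 with Kit, and that of Fcgr3 with Fcgr4 was 0.59. The bright Fcgr2b probe correlated at 0.72 with ILMN_3102376, 0.49 with ILMN_3029178 and 0.31 with ILMN_2577664, and the bright Kit probe at -0.35 with ILMN_1250169. These 8 points share their hybridisations and 3 groups, and the values are descriptions. The order of the group means was Itgb3-17, Itgb3-20, control for the bright Fcgr2b probe. There no neighbouring pair differed beyond the threshold, and only Itgb3-17 and the control did. The order was Itgb3-20, control, Itgb3-17 for Fcgr3, where the last pair did not differ, and for Fcgr4, where no pair passed.

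The tested neighbours on chromosome 1 did not pass the test. From Fcgr2b to B4galt3 in the RefSeq gene order, Sdhc, a subunit of succinate dehydrogenase, was at 0.20 for the mean of both hairpins against the control (limma adjusted p = 0.427), Tomm40l at 0.25 (0.255), Pcp4l1 at -0.02 (0.948), Nr1i3, the nuclear receptor CAR, at -0.16 (0.590) and B4galt3, a galactosyltransferase, at 0.18 (0.488). Fcrla, a relative of the Fc receptors beyond Fcgr2b, had 4 probes and none was tested.

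The tested probes of other genes most like each bright probe, by Pearson's correlation over the 8 arrays, were Rpp14 (0.98), Nipsnap3b (0.97), Irf2 (0.96), Mis18a (0.96) and Tmem131l (0.94) for Kit. For Fcgr2b they were Ddx39b, Ifi27, Coro1a, Idh3b and Gm26588, each at 0.98. For Fcgr3 they were Faim (0.98), Tut7 (0.97), H2-Oa (0.97), H1f2 (0.95) and Cmtm8 (0.95), and for Fcgr4 they were Gstk1 (0.98), Orai1 (0.96), Riok1 (0.96), Serinc1 (0.95) and Atp6v1b2 (0.95). With 8 arrays and 13315 probes such values arise for many genes, and they say nothing of shared function.

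Of the 41 genes listed for the Kit ligand and Kit signalling, 16 were tested. For the mean of both hairpins 5 rose and 1 fell, against 8.93% and 7.84% of all tested probes, with a median difference of 0.10 against 0.02 over all tested probes. Bad, the cell death regulator that growth factor signals phosphorylate, rose from 5.64 ± 0.24 (SD, n = 3) to 6.58 ± 0.17 (SD, n = 3) with Itgb3-17 and 6.69 ± 0.01 (SD, n = 2) with Itgb3-20, a mean difference of 1.00 ± 0.151 (SE, limma adjusted p = 0.000694). Dok2, an adaptor that restrains receptor tyrosine kinases, rose by 0.87 ± 0.145 (SE, limma adjusted p = 0.00114). Stat5a, a transcription factor activated through Kit, rose by 0.71 (limma adjusted p = 0.00825, but 0.0545 with no filter and 0.0567 without Luc control replicate 2). Inpp5d and Pik3cd also rose and Nras, the small GTPase, fell by 0.76 (limma adjusted p = 0.0104). With Itgb3-17 alone 3 rose and 1 fell (7.22% and 5.69% of all tested probes), and with Itgb3-20 alone 4 rose and 2 fell (5.71% and 5.27%). The same shares are the background of the list counts that follow. Under median scaling 0 genes of this list fell in any of these comparisons.

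Of the 29 genes listed for activating Fc receptor signalling, 18 were tested. For the mean of both hairpins 3 rose and 1 fell (median -0.06, while the median was 0.16 with Itgb3-17 and 0.06 with Itgb3-20). Ncf4, a cytosolic subunit of the phagocyte NADPH oxidase, rose by 0.64 ± 0.139 (SE, limma adjusted p = 0.00563), and Bcl10, an adaptor to NF-kB, by 0.49 ± 0.135 (SE, limma adjusted p = 0.0215, but 0.0523 without Luc control replicate 1 and 0.0675 without replicate 3). Rac1, the GTPase of actin remodelling in phagocytosis, fell by 0.79 ± 0.157 (SE, limma adjusted p = 0.00348, but 0.0743 under median scaling). With Itgb3-17 alone 1 rose and 3 fell, the falls being those of Rac1 (-1.03, limma adjusted p = 0.00184), Cdc42 and Rac2 (-0.62, 0.0242), all small GTPases of the actin cytoskeleton. Cdc42 was above background on 3 controls and 0 of the 3 Itgb3-17 arrays, and the control was at least 1.74-fold Itgb3-17 (limma adjusted p = 0.0104). Of these 3, Rac1 alone was also called under median scaling, where the adjusted p was 0.0711 for Cdc42 and 0.714 for Rac2. The Cdc42 call was also lost without Itgb3-17 replicate 1 (0.0570), and the Rac2 call without that array (0.127), Itgb3-17 replicate 2 (0.0878) or Luc control replicate 2 (0.0937). With Itgb3-20 alone 2 rose and 1 fell.

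Of the 12 genes of inhibitory Fc receptor signalling, 7 were tested and 1 rose, Inpp5d, which encodes the phosphatase SHIP1 that the Fcgr2b protein recruits and which the Kit list also holds. Its level was 4.76 ± 0.34 (SD, n = 3) in the control, 5.32 ± 0.30 (SD, n = 3) with Itgb3-17 and 5.58 ± 0.12 (SD, n = 2) with Itgb3-20, with 2 of the 3 controls above background. The mean difference was 0.69 ± 0.177 (SE, limma adjusted p = 0.0138), but the adjusted p was 0.0966 with no filter and 0.0844 without Luc control replicate 1. With Itgb3-17 alone 0 of the 7 were called by limma and 2 had an unadjusted p under 0.05.

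Pik3r1, the regulatory subunit of PI 3-kinase and a member of both signalling lists, was the only gene of these lists to differ between the hairpins, at -1.16 ± 0.249 (SE, limma adjusted p = 0.0485). It was at 0.34 (limma adjusted p = 0.351) with Itgb3-17 and fell by 0.82 (limma adjusted p = 0.0448) with Itgb3-20. The call with Itgb3-20 was lost in 10 of 17 alternatives. In that comparison the other tested Pik3r1 probe, above background on 8 arrays, was at -0.05 (limma adjusted p = 0.924). Of 17 alternatives the call between the hairpins was lost in 13, among them 6 that leave out 1 array (0.0558 to 0.213), and its other tested probe was at -0.75 (limma adjusted p = 0.206).

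**Figure D5:**
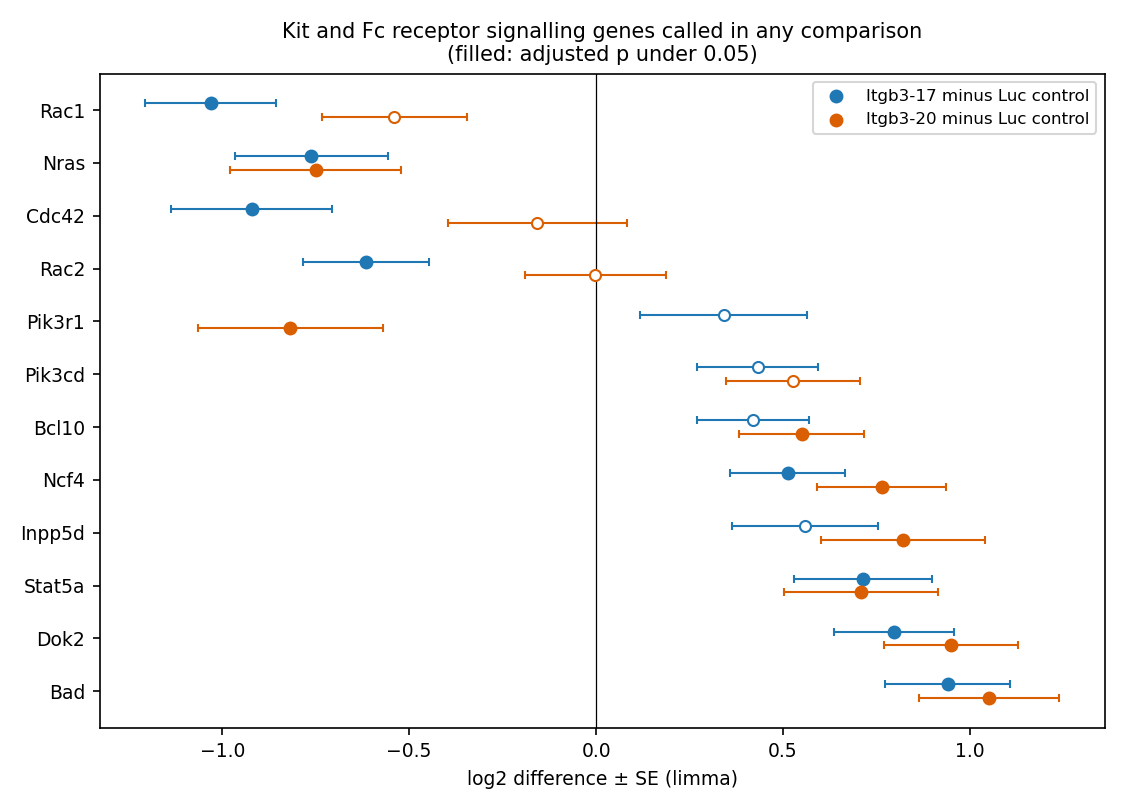
Log2 difference ± SE (horizontal axis, limma) of the 12 genes of the Kit and Fc receptor signalling lists called in any comparison: blue, Itgb3-17 minus Luc control; orange, Itgb3-20 minus Luc control; filled points have an adjusted p under 0.05. Bad, Dok2, Stat5a, Ncf4 and Nras are filled for both hairpins, Pik3r1 lies at 0.34 and -0.82, and the Cdc42 point of Itgb3-17 comes from arrays not above background.

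Of the 12 other Fc receptor genes listed, 2 were tested and limma called 0 in any comparison, with 0 at an unadjusted p under 0.05 against the control. Of the 23 other ITAM adaptors and their partner receptors, 10 were tested. Hcst, the adaptor DAP10, rose by 0.88 (limma adjusted p = 0.00612, but 0.0782 without Itgb3-20 replicate 4) with Itgb3-20. Clec4e, the receptor Mincle that pairs with the gamma chain, was lower by 0.77 for the mean of both hairpins (limma adjusted p = 0.00272, but 0.0570 under median scaling). That size rests partly on arrays not above background, since Clec4e was above it on 3 control, 2 Itgb3-17 and 0 Itgb3-20 arrays. The control was at least 1.57-fold Itgb3-20 (limma adjusted p = 0.00925). Of the 6 genes of the CD34 family and other progenitor sialomucins, 3 were tested. Selplg, the selectin ligand PSGL-1, rose by 0.69 for the mean of both hairpins (limma adjusted p = 0.00403), while its other tested probe was at 0.12 (0.689). The median of the 3 genes was -0.30 for the mean of both hairpins and -0.42 with Itgb3-17, against 0.02 over all tested probes. With Itgb3-17, 2 of the 3 were lower at an unadjusted limma p under 0.05 (3641 of the 13315 tested probes in either direction), and 0 were called lower.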

How the data were processed

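Arrays were assigned to the Luc control (3), Itgb3-17 (3) and Itgb3-20 (2) groups from their titles. The deposited bead intensity of each probe was not normalized, per the file headers, and the authors also deposited a detection p-value for each probe (how it was made is not stated). A table of log2 values deposited by the authors had the rank order of the signals (Spearman 1) and column medians of 6.61. Its scale fits log2 signals, but its centring, offset and method are unknown, so it served as an alternative. Signals were corrected and normalized with limma 3.58.1 in R 4.3.3 (neqc with negative controls inferred from detection p-values, offset 16, quantile normalization). The tests took the 13315 of 45281 probes whose detection p-value was under 0.05 on 2 or more arrays. Gene symbols were read from the platform annotation: 34885 probes had 1 symbol, 18 several and 10378 were unnamed here. All 8 arrays entered 1 model of the 3 groups (lmFit and eBayes, two-sided tests), which was checked on simulated data. The mean of both hairpins weights the hairpin groups equally. Named genes were the 7 genes, Syk, Itgb3, the genes called in each of 19 lists (up to the 3 of lowest p per comparison) and the 5 most correlated genes of each probe. Inpp5d, Pik3cd, Nras, Hoxa9, S100a8 and the other tested probes named lie outside that rule in some comparison and were named after their values were seen. Where a list gene had several tested probes, that of highest mean stood for it. The members and lists were chosen with earlier results of these data known. Alternatives to background correction, normalization, filter, moderation, weights, samples and replicates were tried. Replicates 1 to 3 of the control and Itgb3-17 arrays share numbers, and the labels do not say whether these mark a batch. The correlations of same-numbered arrays' deviations after normalization were 0.03, -0.02 and -0.01, which on 3 arrays a group does not settle it. No arrays held identical values.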

Additional observations from a re-analysis of the deposited data

Results flagged for a closer look

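The hairpins differed by a called limma test (Itgb3-20 minus Itgb3-17, log2 scale) for 1 of the 7 genes, of which 4 were tested, and 5 genes of the lists. Over all tested probes 71 of 13315 (0.533%) were called in this comparison. Fcgr3 differed by 1.22 (adjusted p = 0.0106), described above. S100a9 differed by 1.67 (0.00622), from 0.30 against the control with Itgb3-17 to 1.97 with Itgb3-20. Lyz2 differed by 1.14 (0.0111), from -0.11 (0.34 under median scaling) to 1.03, while its other tested probe, above background on 4 arrays, differed by 0.08 (0.930). S100a8 differed by 0.855 (0.031), from -0.10 (0.41 under median scaling) to 0.75. H2-Ab1, a class II antigen presentation gene, differed by 0.96 (0.031), from -0.39 (0.05 under median scaling) to 0.57 (0.0619), and its other tested probes disagreed, at -0.12 (0.875) and 0.56 (0.389). Against the control the first of these other probes was called lower with Itgb3-17 (-0.63, 0.0255) and Itgb3-20 (-0.75, 0.0221), and the second was not called. Pik3r1 differed by -1.16 (0.0485). Median scaling and testing without a filter ended each of these calls between the hairpins. Leaving out Itgb3-17 replicate 2 or 3 ended those of Fcgr3, Lyz2 (0.0834 and 0.0723), S100a8 (0.136 and 0.115), H2-Ab1 (0.101 and 0.115) and Pik3r1 (0.213 and 0.147), with further arrays for the last 3, but not that of S100a9. What sets the Itgb3-20 arrays apart was not tested.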

How the results depend on the processing

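Of 544 differences of the tested probes under alternatives, 500 kept their direction and side of the threshold, 11 lost and 19 gained a call, and 14 reversed. Only 1 of the 8 probes was called in each comparison, so most of the 500 were uncalled differences that stayed uncalled. Of 1194 differences of listed genes, 1013 kept both, 171 lost and 7 gained a call, and 3 reversed. The number of the 8 probes called became 2 in all 3 comparisons with the control with no background correction, an offset of 50 and the authors' processed values. It became 2 with a stricter filter (mean of both hairpins and Itgb3-17), and for Itgb3-17 also with trend and robust moderation, array weights and only the compared groups. It became 0 under median scaling (Itgb3-20, and between hairpins) and with no filter (between hairpins). A replicate block was also fitted for the control and Itgb3-17, over numbers that the labels do not call a batch. It called 2 of the 8 probes (Fcgr2b and Fcgr4) and 2306 probes in all. Median scaling reversed Kit ILMN_1246876 (0.033, 0.026 and 0.040 for the mean, Itgb3-17 and Itgb3-20), Fcgr4 (0.093, mean) and, for Itgb3-17, Fcgr3 (0.27), Lyz2 (0.34), S100a8 (0.41) and H2-Ab1 (0.045). It called 1406 probes for the mean, 94.4% of them higher against 53.2% in the fit described, 1733 for Itgb3-17 (97.9% higher against 56%), 209 for Itgb3-20 (79.9% higher against 52%) and 2 between hairpins (0% higher). No filter, with more probes tested, called 1444, 1040, 732 and 1 for the mean, Itgb3-17, Itgb3-20 and the hairpin difference. Between hairpins 207 probes were called with no background correction, 156 with an offset of 50, 249 with the authors' processed values and 197 with trend and robust moderation. For Itgb3-20, 851 were called with array weights and 798 with only the compared groups.

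Leaving out 1 array at a time called 0 to 1 of the 8 probes for the mean, 0 to 2 for Itgb3-17, 1 to 2 for Itgb3-20 and 0 to 1 between hairpins, and 1437 to 2600, 743 to 2160, 388 to 1723 and 2 to 222 of all probes. Differences that reversed for some left-out array were, as their lowest and highest values, those of Fcgr2b ILMN_3029178 (-0.041 to 0.25 for the mean, -0.12 to 0.32 for Itgb3-20, -0.31 to 0.13 between hairpins), Fcgr2b ILMN_2577664 (-0.030 to 0.11 for Itgb3-17), Kit ILMN_1246876 (-0.41 to 0.10 for Itgb3-20), Fcgr4 (-0.13 to 0.20 for Itgb3-20) and Kit ILMN_1250169 (-0.070 to 0.33 between hairpins). The arrays that turned them were Luc control replicates 1 and 3, Itgb3-17 replicate 1 and both Itgb3-20 arrays. Without an Itgb3-20 array the remaining array is assumed to vary like the other groups. These fits kept the normalization and tested probes of the 8 arrays. The cause of the other changes was not tested. The slide as a block was not run, since no slide is given. Signal over background limits Cd34, Fcgr1, Fcer1g and all but 1 probe each of Kit and Fcgr2b.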

Other observations

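Of 23 transcription factors listed as known to act at the Kit, Cd34 or Fc receptor genes, 16 were tested. Ets1, a founding Ets factor, fell by 1.24 ± 0.176 for the mean of both hairpins (SE, limma adjusted p = 0.000504), and its level was lower on all 5 knockdown arrays than on the controls. Hoxa9, a partner of MLL fusions in leukaemia, fell by 1.19 (limma adjusted p = 0.0140) with Itgb3-20, or by 0.51 without its replicate 4 (0.244), and its other tested probe fell by 1.53 (0.00271). Mzf1, a myeloid zinc finger factor, rose by 0.66 (0.0182) with Itgb3-17, and its other tested probe by 0.64 (0.0364), but the first call was lost without any of 5 arrays, with adjusted p from 0.0515 to 0.0860. Cebpe, a factor of granulocyte maturation that the neutrophil list also holds, rose by 0.75 (0.00960, but 0.0905 without replicate 4) with Itgb3-20, while its 3 other tested probes were at -0.37 to 0.56 and were not called.

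Of 15 myeloid growth factor and cytokine receptors, 8 were tested. Ifngr2, a chain of the interferon gamma receptor, rose by 1.00 for the mean of both hairpins (limma adjusted p = 0.00180), while its other tested probes, above background on 3 and 2 arrays, were at -0.36 and -0.07. Ifngr1, the other chain, fell by 0.59 (0.0336) with Itgb3-20, a call lost in 9 of 17 alternatives. Of 15 surface genes used to gate other marrow progenitors, 4 were tested, and Tfrc, the transferrin receptor, which the erythroid list also holds, fell by 0.71 (0.0114) with Itgb3-17 (0.505 under median scaling, 0.0504 without Luc control replicate 2), while its other tested probe was at -0.10 (0.745). Of 14 lineage markers that progenitor gates remove, 4 were tested and limma called 0 in each comparison with the control, with 0 at an unadjusted p under 0.05.

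Summed signals of other markers follow for the control, Itgb3-17 and Itgb3-20 arrays. For erythroid genes (1 tested, Tfrc) they were 1618 to 2096, 1390 to 1402 and 1338 to 1605. The called Tfrc probe, at a log2 level of 10.25 on the controls, weights this sum most. Hba-a1, Klf1, Gata1, Epor, Alas2, Slc4a1 and Rhag were above background on no array. The sums were 353 to 362, 346 to 354 and 344 to 355 for megakaryocyte and platelet genes (2 tested). They were 598 to 694, 552 to 604 and 634 to 679 for dendritic cell genes (1 tested, H2-Ab1). For endothelial and stromal genes (2 tested) they were 536 to 549, 511 to 537 and 528 to 532.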
